A study of Mus musculus with 4 samples.

Results

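Myofibroblasts of the mouse epididymis and vas deferens were compared between 4 stretches of the duct. They were the 975 cells that the deposited cell table calls connective, out of 8880 cells in all, and the caput epididymidis contributed 184 of them, the corpus 420, the cauda 162 and the vas deferens 209. Their counts were summed within each library, so that each region had a single profile. The tissue came from 4 adult male FVB/NJ mice aged 10 to 12 weeks, and the labels name no treatment for any of them. The 8 epididymides were cut into segments that matched the 4 regions only roughly, the 8 pieces of a region were pooled, depleted of sperm and digested together, and 1 droplet 3′ RNA-Seq library was made per region. Each group is therefore 1 pool of several animals, and a difference between regions and a difference between libraries cannot be told apart. No p-value was computed. Levels are UMIs (unique molecular identifiers, one per captured RNA molecule) and UMIs per 1000000 UMIs of the myofibroblasts of that library (UPM), and values are given in the order caput, corpus, cauda and vas deferens unless stated. All intervals are exact 95% intervals that cover counting error only.

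Myofibroblasts are stromal cells that make both extracellular matrix and the actin and myosin filaments of smooth muscle, and in the epididymis flattened contractile cells of this kind wrap the duct beneath its epithelium. Hox genes encode homeodomain transcription factors that lie in clusters, and along the body axis and the reproductive tract genes at one end of a cluster are used more anteriorly than genes at the other. Activins are secreted dimers of inhibin beta chains that signal through SMAD proteins, follistatin binds and neutralizes them, and bone morphogenetic proteins (BMPs) and Wnt proteins are other secreted signals exchanged between stroma and epithelium.

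Myofibroblasts made up 12.8% of the cells in the caput library (interval 11.2 to 14.7) and 18.1% in that of the corpus (16.5 to 19.7). For the cauda the share was 10.0% (8.60 to 11.6) and for the vas deferens 5.96% (5.20 to 6.80). They held 3837390 UMIs in total, between 608515 in the vas deferens and 1685140 in the corpus, and a median of 2930 to 4985.5 UMIs and 1298 to 1800.5 genes per cell, lowest in the vas deferens and highest in the cauda for both. A gene with no UMI could still have had up to 3, which is 3.95, 1.78, 3.82 and 4.93 UPM. No barcode was shared between myofibroblasts of different libraries, 13 of the 975 shared one with some other cell, and 947 of them lay in a single cluster of the first clustering. Between 23 and 65 cells per library also held markers of another cell class or an unusual share of secretory transcripts and were called mixed. Beside them, the libraries contained 75, 239, 127 and 806 other stromal cells, and the cells called muscle numbered 0, 7, 58 and 437.

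The label was checked against markers. All 14 genes of a myofibroblast list had at least 20 UMIs in some library, and their summed level was 32125, 21146, 36449.5 and 26892 UPM, against 328, 478, 222 and 755 UPM in principal cells, the main secretory epithelial cells. The other stromal cells held 34740.3, 25419, 26185 and 20196 UPM, more than the myofibroblasts in the caput and corpus, so the list set these cells apart from the epithelium and not from the rest of the stroma. Acta2, which encodes smooth muscle alpha-actin, was higher in myofibroblasts than in other stroma in each library, at 10781, 5873, 7433 and 6187 UPM against 7960.2, 3342, 1502 and 290.4 UPM, and the ratio was largest in the vas deferens. Muscle cells held 21234, 22048 and 17163 UPM in corpus, cauda and vas deferens, so Acta2 was higher in muscle than in myofibroblasts in each of those libraries. Lum, which encodes the matrix proteoglycan lumican and is one of the 14, was near the counting floor in every myofibroblast library but the vas deferens. Markers of other cell classes were low: the immune list summed to 14.5, 14.8, 11.5 and 26.3 UPM with no UMI of the pan-leukocyte gene Ptprc, the clear cell list to 13.2, 8.31, 5.1 and 6.57 UPM and the basal cell list to 98.8, 45.7, 31.9 and 59.2 UPM. The endothelial list summed to 104, 167, 140.2 and 118 UPM, most of it Emcn (53, 246, 106 and 41 UMIs). The muscle list summed to 4122, 2684, 4924 and 3704 UPM, against 7044, 25692 and 34206 UPM in the muscle cells of corpus, cauda and vas deferens, and the mesothelial list to 3.95, 12.5, 26.8 and 13.1 UPM.

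Genes of the contractile apparatus were higher in one region about as often as all genes were. Of 30 genes for smooth muscle actin, myosin, their regulators and anchoring proteins, all passed 20 UMIs. Of these, 2 (6.67%) were at least 2-fold higher in one library than in each other, against 522 of 7105 genes (7.35%) over the whole table. Another 2 were 2-fold lower in one library, where 4.57% of all genes were. They were Pdlim3 in the caput (24, 119, 85 and 118 UMIs) and Csrp1 in the vas deferens. The summed level of the 30 genes was 44707, 31959, 49246 and 38441 UPM. Myl9, the regulatory light chain of smooth muscle myosin, stood at 4183, 2695, 4084 and 3867 UPM (3175, 4542, 3205 and 2353 UMIs), and Tpm2, a tropomyosin, at 3286, 1913, 3058 and 2751 UPM. Tagln, the actin-bundling protein transgelin, was one of the 2 higher genes, with 3326, 4946, 7670 and 2515 UMIs. Its level in the cauda was 2.23-fold, with a 95% interval of 2.14 to 2.32, above the next library. Pln, which encodes phospholamban, a brake on the calcium pump of muscle, was the other, with 29, 13, 4 and 8 UMIs. It was 2.91-fold (95% interval 1.3 to 7.36) higher in the caput, where its UMIs came from 9 of the 184 cells. The windows upstream of 2 contractile genes are shown because their list was present in all 4 regions, and the capitals mark the CArG box, the site read by serum response factor at many muscle genes. They are the 250 bases before the annotated start in RefSeq (GRCm38.p6, plus strand), at chr2:156775214-156775463 for Myl9 and chr14:20929148-20929397 for Vcl, which encodes the anchoring protein vinculin.
Myl9: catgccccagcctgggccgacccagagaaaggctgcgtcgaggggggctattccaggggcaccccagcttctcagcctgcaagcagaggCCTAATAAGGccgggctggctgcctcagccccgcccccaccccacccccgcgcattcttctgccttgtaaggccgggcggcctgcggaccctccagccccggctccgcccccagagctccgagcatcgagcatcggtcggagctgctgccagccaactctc
Vcl: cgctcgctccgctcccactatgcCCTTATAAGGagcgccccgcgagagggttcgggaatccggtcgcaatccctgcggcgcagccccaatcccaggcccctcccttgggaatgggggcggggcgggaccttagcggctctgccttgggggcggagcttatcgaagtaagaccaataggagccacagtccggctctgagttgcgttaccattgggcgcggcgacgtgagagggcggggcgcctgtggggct
Between the box and the annotated start lie 151 bases at Myl9 and 217 bases at Vcl. A match to the CArG box pattern, searched in 1 pass because the pattern is its own reverse complement, was in 482 of 32851 RefSeq windows of this length (1.47%) and in 5 of the 29 windows of the contractile list (17.2%), those of Myl9, Cnn2, Myl6, Vcl and Srf. Of the list's 30 genes, 26 had a window. A match describes these letters only, and binding was not measured here. Vcl itself had 185, 339, 306 and 169 UMIs (244, 201, 389.9 and 278 UPM).

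The 4 profiles were next compared pair by pair. Between caput and corpus 957 genes differed at least 2-fold with an interval that left out 1 (9.73% of genes tested were higher in the caput and 7.06% in the corpus), and between caput and cauda 1167 did (12.9% and 11.2%). Between corpus and cauda the count was 893 (7.41% and 8.06%). The vas deferens differed from the caput at 1398 genes (12.9% higher in the caput, 17.4% in the vas deferens), from the corpus at 1290 (8.41% and 16.2%) and from the cauda at 904 (7.43% and 12.4%). The counts depended on depth, and with all libraries thinned to the smallest total they were 772, 999, 1324, 667, 1148 and 876 for caput with corpus, cauda and vas deferens, corpus with cauda and vas deferens, and cauda with vas deferens. In both of these 2-fold versions the caput and the vas deferens, the ends of the duct, differed at the most genes and the corpus and the cauda at the fewest. With a 4-fold threshold the caput and the vas deferens again differed at the most, but the caput and the corpus at the fewest. A stricter class, called region genes here, needed 20 or more UMIs in one library and a level that was 4 or more times that of every other. Ratios are to the library with the next level unless another is named. The caput had 38 (0.78% of those tested), the corpus 9 (0.132%), the cauda 15 (0.313%) and the vas deferens 65 (1.47%). By a looser rule, 2-fold lower in one library than in every other, the caput had 110 genes (2.8%), the corpus 31 (0.854%), the cauda 54 (1.42%) and the vas deferens 130 (3.18%).

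Transcripts that secretory epithelium releases during dissociation can enter droplets with other cells, so each region gene was checked against the other cells of its library. The authors had already removed an estimated ambient share, 2.25 to 3.38% of the UMIs of these cells. Of what remained, 0.151 to 0.353% came from the 20 secretory genes most abundant in the library's principal cells. In the caput, Gpx5, an epididymal glutathione peroxidase made by principal cells, had 531, 0, 1 and 0 UMIs in myofibroblasts, and the beta-defensin genes Defb20 and Spag11b had 320, 5, 1 and 1 and 350, 3, 0 and 2. In the vas deferens, the principal cell gene Akr1b7, which encodes an aldo-keto reductase, had 2, 3, 0 and 295 UMIs. For the same 20 genes, the level in myofibroblasts was 2.67, 2.79, 2.47 and 5.65% of that in the library's other cells. This carry-over rate dropped to 1.67% for the cauda and 2.15% for the vas deferens when the broadly expressed genes that the name-based list took in were replaced, Cst3 and Spint2 in the cauda and Cst3, Spint2, Rnasek, Cstb and Rnaset2a in the vas deferens. A gene was called within carry-over when that rate, times its level in the other cells, reached at least 50% of its myofibroblast level. This took in 15 of the 38 caput genes, 2 of the 9 corpus genes, 1 of the 15 cauda genes and 2 of the 65 vas deferens genes, and left 23, 7, 14 and 63. Of those left, 7, 1, 1 and 0 still had names of the secretory kind. The rate is 1 value per library, while the single ratios of the 20 caput genes ran from 0.83 to 11.4%. The check therefore cannot clear each gene that it left. Without mixed cells the caput had 19 region genes in place of 38.

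**Figure D1:**
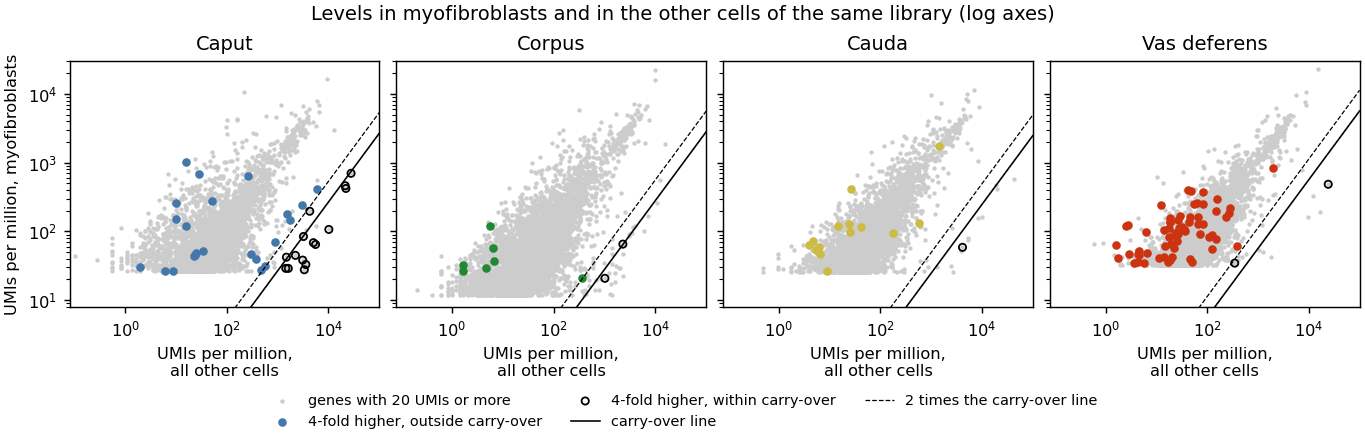
Level of each gene in myofibroblasts (UPM, y axis) against its level in all other cells of the same library (UPM, x axis), both on log axes, with 1 panel per library. Grey points are genes with at least 20 UMIs, filled points are region genes outside carry-over, open points are the 15, 2, 1 and 2 region genes within it, the solid line is the carry-over rate and the dashed line marks 2 times that rate.

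A second check asked in how many cells a region gene was found. At least 50% of the UMIs lay in 5 cells for 21 of the 38 caput genes, 4 of the 9 corpus genes, 5 of the 15 cauda genes and 14 of the 65 vas deferens genes. Neither limit touched 13, 3, 10 and 50 genes, and the share in 5 cells is given below wherever it was high.

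Hox genes differed between the regions in an ordered way. Of 43 Hox genes listed, 36 were in the table and 17 had at least 20 UMIs in a library, and 10 of the 17 (58.8%) were at least 2-fold higher in one library, against 7.35% of all genes. In the caput, where 3.26% of all genes tested were 2-fold higher, these were Hoxa5, Hoxa6, Hoxa7, Hoxb4, Hoxc4 and Hoxc8. In the cauda (1.36% of all genes) they were Hoxd9 and Hoxd10 and in the vas deferens (5.34%) Hoxa11 and Hoxd11. Among these 10, the lower-numbered, anterior genes were highest at the start of the duct and the higher-numbered ones toward its end. Hoxd4 (19, 25, 23 and 8 UMIs) and Hoxd8 (13, 20, 26 and 14 UMIs) were not among them. Both had their highest level in the cauda, with intervals that overlapped those of the caput.

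**Figure D2:**
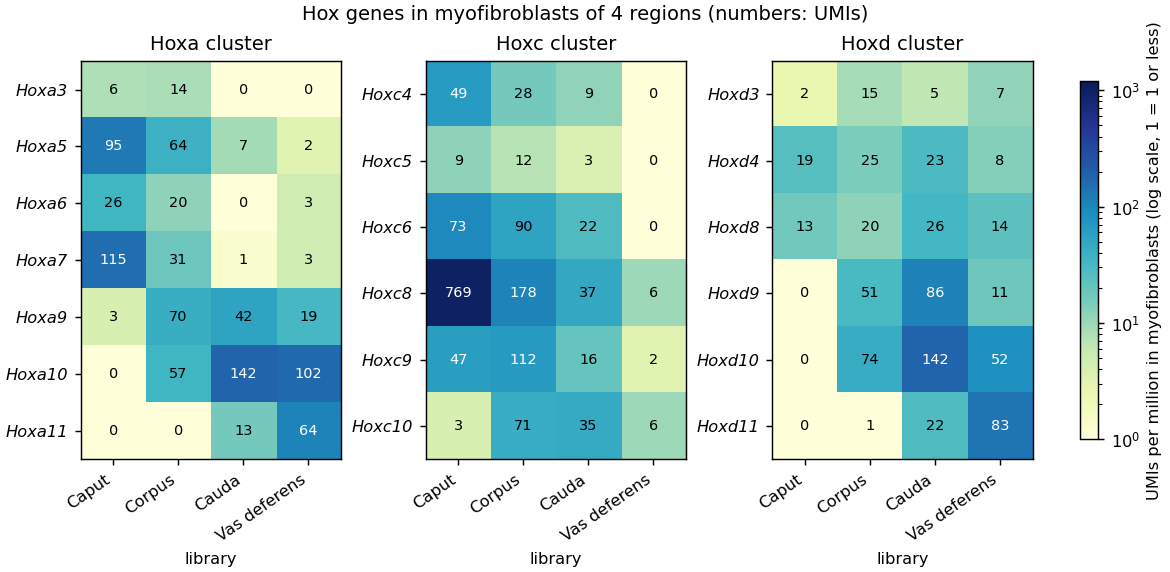
Level of Hox genes in myofibroblasts of the 4 libraries (color, UPM on a log scale, with levels of 1 or less drawn as 1), with genes in the order of their paralog number in each cluster and the UMIs printed in each square. In the Hoxa cluster the dark squares move from caput to vas deferens as the paralog number grows, with 115 UMIs of Hoxa7 in the caput. Hoxa11 has 64 in the vas deferens. In the Hoxc cluster they move only as far as the corpus and cauda, where Hoxc10 has 71 and 35 UMIs, against 6 in the vas deferens.

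Hoxc8 had the most UMIs of the anterior genes, 769, 178, 37 and 6 (1013, 106, 47.1 and 9.86 UPM). The caput level (interval 943 to 1087) was 9.59-fold (95% interval 8.14 to 11.4) the corpus level and 103-fold (95% interval 47 to 281) the vas deferens level, and no interval of one library reached that of another. After thinning each cell to 1000 UMIs, a Hoxc8 UMI was present in 52.7%, 9.65%, 4.67% and 0.524% of cells, and in 0.292%, 0.289%, 0% and 0% of principal cells, which should lack it (median UMIs before thinning 4022.5, 4088.5, 4985.5 and 2930 in myofibroblasts and 844, 658, 889 and 1286.5 in principal cells). Without thinning the myofibroblast shares were 73.4%, 25%, 17.3% and 2.39%. Thinning left 165, 373, 150 and 191 myofibroblasts and 342, 346, 433 and 773 principal cells, and left out 19, 47, 12 and 18 and 394, 583, 498 and 587 shallower ones, so a share of 0%, taken to allow 3 cells, allows up to 1.82, 0.804, 2.00 and 1.57% of myofibroblasts and 0.877, 0.867, 0.693 and 0.388% of principal cells with a UMI. Hoxa7 had 115, 31, 1 and 3 UMIs and was 8.24-fold (95% interval 5.5 to 12.7) higher in the caput than in the corpus. Hoxa5 had 95, 64, 7 and 2 UMIs and was 3.3-fold (95% interval 2.38 to 4.6) higher there, and Hoxc6 had 73, 90, 22 and 0 UMIs, with none in the vas deferens. The caput level of these genes was thus the highest in each case, while the corpus held an intermediate one.

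The posterior genes showed the opposite order. Hoxa10 had 0, 57, 142 and 102 UMIs (0, 33.8, 181 and 168 UPM) and was at least 8.56-fold lower in the caput than in the corpus, while the cauda interval of 152 to 213 UPM and the vas deferens interval of 137 to 203 UPM overlapped. Hoxd10 had 0, 74, 142 and 52 UMIs (0, 43.9, 181 and 85.5 UPM) and was highest in the cauda. Hoxa11 had 0, 0, 13 and 64 UMIs and Hoxd11 had 0, 1, 22 and 83 UMIs, and their vas deferens levels were 6.35-fold (95% interval 3.46 to 12.6) and 4.87-fold (95% interval 3.01 to 8.18) the cauda levels. Hoxd10 and Hoxd11 overlap on chromosome 2 in RefSeq (GRCm38.p6, 74684273 to 74695106 and 74679558 to 74687016), so part of their reads could belong to either. The same limit holds for Hoxa4, Hoxa5 and Hoxa6, which lie within the Hoxa3 entry, and for Hoxd4, which lies within that of Hoxd3. Group 13 genes were scarce, with 0, 0, 0 and 8 UMIs of Hoxa13 and 0, 1, 2 and 8 UMIs of Hoxd13. Hoxa9 had 3, 70, 42 and 19 UMIs and Hoxc10 3, 71, 35 and 6 UMIs, which peaked in neither end library. The Hoxd9 level was 3.62-fold (95% interval 2.53 to 5.23) higher in the cauda than in the next library, with 0, 51, 86 and 11 UMIs.

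The corpus and the cauda held both kinds of transcript, and this was examined in single cells after the sums had been seen. Among cells with at least 1000 UMIs, a UMI of any of 7 anterior genes (Hoxa5, Hoxa6, Hoxa7, Hoxc4, Hoxc5, Hoxc6 and Hoxc8) was found in 146 of 165 caput cells (88.5%), 212 of 373 corpus cells (56.8%), 56 of 150 cauda cells (37.3%) and 11 of 191 vas deferens cells (5.76%). A UMI of any of 6 posterior genes (Hoxa10, Hoxa11, Hoxa13, Hoxd10, Hoxd11 and Hoxd13) was found in 0, 59 (15.8%), 95 (63.3%) and 123 (64.4%). In the cauda, 67.9% of the cells with an anterior transcript also held a posterior one (interval 54.0 to 79.7), and so did 60.6% of those without (50.0 to 70.6). In the corpus these shares were 17.5% (12.6 to 23.2) and 13.7% (8.77 to 19.95). The intervals overlapped in both libraries, and 37 corpus and 38 cauda cells held both kinds. These cells were not thinned and no doublet caller was run. Cauda cells had median UMIs of 5615 with both kinds, 4554.5 with anterior only, 5626 with posterior only and 3699 with neither. In the corpus these medians were 4171, 4492, 4253 and 3855. Because detection varies with depth, the counts cannot decide whether the kinds mark separate sets of cells. Cells counted as negative may hold uncaptured RNA.

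The other stromal cells of each library showed a similar order at fewer UMIs. Their Hoxc8 was at 557, 84.6, 10.3 and 3.16 UPM, from 43, 24, 4 and 6 UMIs, and their Hoxa10 at 0, 28.2, 224 and 68.9 UPM. Their Hoxd11 had 0, 0, 12 and 104 UMIs and their Hoxd10 0, 1, 54 and 56 UMIs. Muscle cells of the cauda and vas deferens held 29 and 294 Hoxa10 UMIs (114 and 233 UPM), so the posterior gene was seen in 3 mesenchymal populations of the distal libraries. Principal cells had 8, 3, 0 and 0 UMIs of Hoxc8 and 7, 0, 2 and 11 of Hoxa10. They did hold Hoxd9, with 68, 39, 35 and 129 UMIs.

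**Figure D3:**
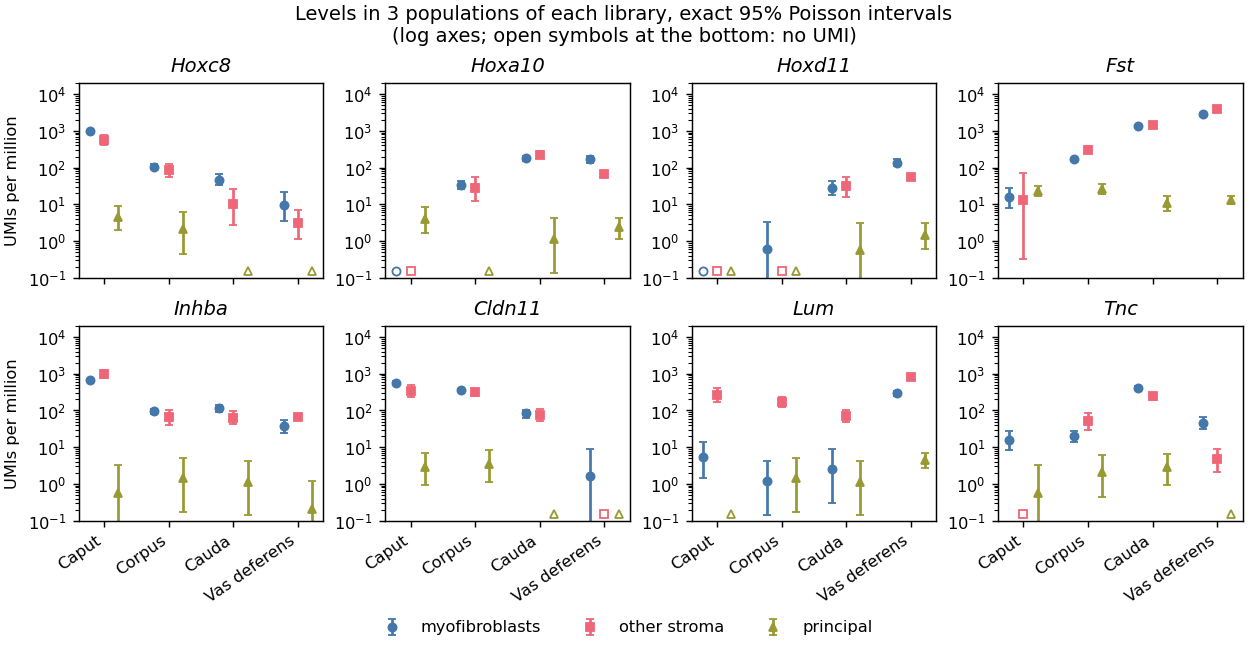
Levels of 8 genes (UPM on log axes, with exact 95% Poisson intervals) in myofibroblasts, other stromal cells and principal cells of each library, where open symbols at the bottom mark no UMI. Hoxc8 is highest in the caput and Hoxa10 and Hoxd11 have no UMI there in myofibroblasts or other stroma, while Lum is near the floor in caput, corpus and cauda myofibroblasts and at 72 to 272 UPM in the other stroma there.

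Genes for activin chains and for the activin inhibitor were highest at opposite ends of the duct. Inhba, which encodes the beta A chain of activin A, had 516, 161, 91 and 23 UMIs (679.8, 95.5, 116 and 37.8 UPM), and its caput level was 5.86-fold (95% interval 4.68 to 7.41) the cauda level and 18-fold (95% interval 11.9 to 28.6) the vas deferens level. Inhbb, which encodes the beta B chain, had 90, 20, 7 and 3 UMIs, and the caput level was 9.99-fold (95% interval 6.1 to 17.1) the corpus level. Fst, which encodes follistatin, had 12, 282, 1062 and 1789 UMIs (15.8, 167, 1353 and 2939.9 UPM), with a vas deferens level (interval 2805 to 3079 UPM) that was 2.17-fold (95% interval 2.01 to 2.35) the cauda level and 186-fold (95% interval 106 to 361) the caput level. Thus the ligand chains were highest in the caput and the inhibitor in the vas deferens, and none of the 3 genes was within carry-over. After thinning, a Fst UMI was found in 1.21%, 7.51%, 45.3% and 64.4% of cells and an Inhba UMI in 31.5%, 7.51%, 5.33% and 1.57%, against 0.585%, 2.02%, 0.462% and 1.94% of principal cells for Fst and none for Inhba. In the cauda, where both were present, 103 cells held Fst and 25 of them (24.3%) also held Inhba, against 19.1% of all cauda myofibroblasts. Other stroma had Inhba at 997, 67, 64.3 and 64.7 UPM and Fst at 12.9, 307, 1443 and 3819.7 UPM.

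**Figure D4:**
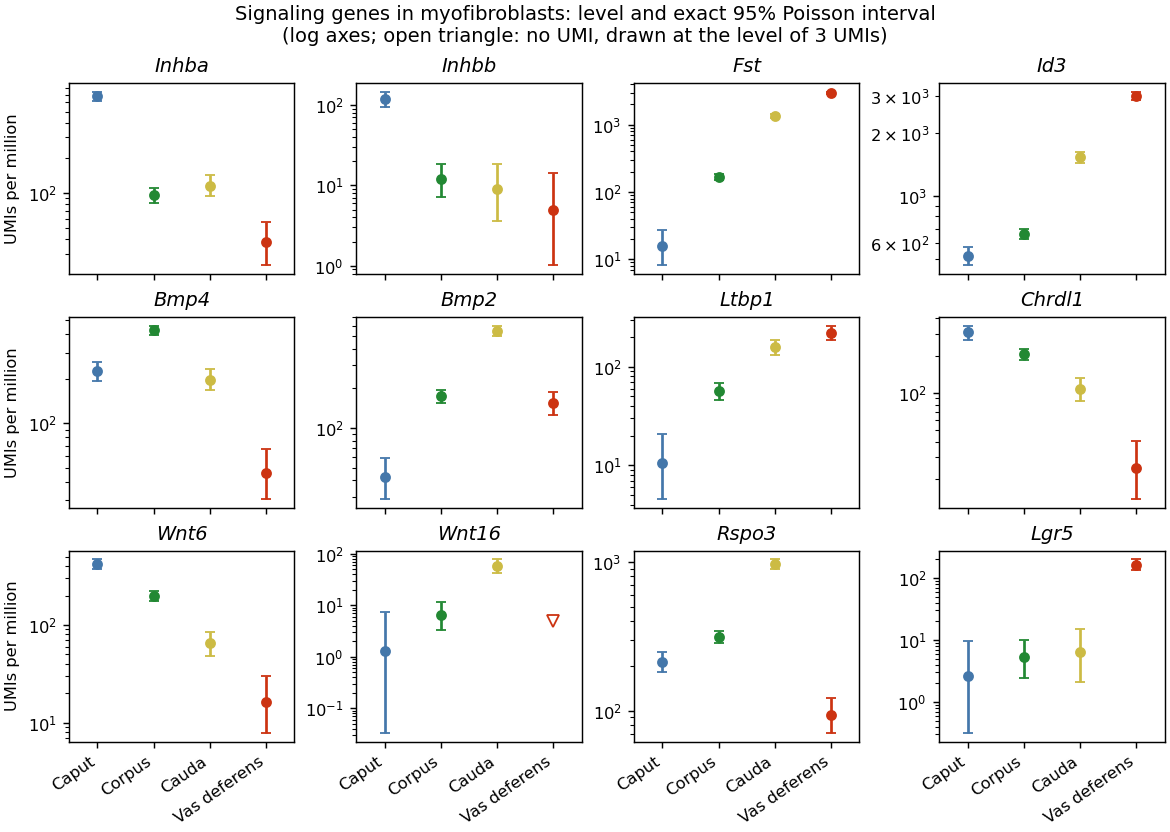
Levels of 12 signaling genes in myofibroblasts (UPM on log axes, points with exact 95% Poisson intervals) by library, where an open triangle marks a gene with no UMI at the level of 3 UMIs. Inhba, Inhbb, Wnt6 and Chrdl1 are highest in the caput, Fst and Id3 in the vas deferens, and Bmp2, Wnt16 and Rspo3 in the cauda.

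Of the 48 genes listed for TGF-beta, BMP and activin signaling, 31 had at least 20 UMIs and 10 of those (32.3%) were 2-fold higher in one library, against 7.35% of all genes, while 8 were 2-fold lower in one, against 4.57%. Bmp4, a BMP ligand, had 170, 718, 155 and 28 UMIs and was 4.29-fold (95% interval 2.86 to 6.67) lower in the vas deferens than in the next library. Bmp2, another, had 32, 295, 430 and 94 UMIs and was 3.13-fold (95% interval 2.69 to 3.64) higher in the cauda than in the corpus. Chrdl1, a secreted BMP antagonist, had 234, 346, 84 and 15 UMIs, lowest again in the vas deferens. On the target side, Id1, a gene induced by BMP signaling, had 27, 67, 96 and 255 UMIs and was 3.43-fold (95% interval 2.7 to 4.38) higher in the vas deferens, and Smad6, an inhibitory SMAD, had 10, 74, 42 and 101 UMIs and was 3.1-fold (95% interval 2.14 to 4.56) higher there. Id3 had 394, 1112, 1196 and 1817 UMIs and was higher at every step. Ltbp1, which holds latent TGF-beta in the matrix, had 8, 95, 123 and 134 UMIs and a vas deferens level 20.9-fold (95% interval 10.3 to 49.4) the caput level. Sostdc1, an antagonist of BMP and Wnt, had 0, 0, 24 and 69 UMIs, with 89.9% of the vas deferens UMIs in 5 cells. So ligands and antagonists did not share one order along the duct.

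Of 49 listed Wnt pathway genes, 27 passed 20 UMIs and 6 (22.2%) were 2-fold higher in one library, against 7.35% of all genes. In the cauda, where 1.36% of all genes were, there were 4. Another 4 calls were 2-fold lower, Sfrp2 in the corpus and Wnt6, Fzd1 and Rspo3 in the vas deferens. Of all genes, 4.57% were 2-fold lower in one library. Wnt16, a Wnt ligand, had 1, 11, 46 and 0 UMIs and was 8.98-fold (95% interval 4.58 to 19.2) higher in the cauda, with 50.0% of the UMIs in 5 cells. Rspo3, which encodes a secreted enhancer of Wnt signaling, had 161, 527, 760 and 57 UMIs (212, 313, 968 and 93.7 UPM) and was 3.1-fold (95% interval 2.77 to 3.47) higher in the cauda. Axin2, a target and inhibitor of Wnt signaling, had 14, 39, 76 and 5 UMIs and was 4.18-fold (95% interval 2.81 to 6.32) higher there, and Fzd1, a Wnt receptor, 2.03-fold (95% interval 1.44 to 2.89) higher. These 4 cauda genes thus included a ligand, an enhancer, a receptor and a target. Wnt6 had the other profile, 319, 333, 51 and 10 UMIs, with a caput level 25.6-fold (95% interval 13.7 to 53.8) the vas deferens level. Lgr5, which encodes a receptor for R-spondins, had 2, 9, 5 and 100 UMIs and was 25.8-fold (95% interval 10.7 to 81.2) higher in the vas deferens than in the cauda. The study lists Lgr5 among the markers of another stromal population of the vas deferens, which it proposes may be mesenchymal stem cells. Sfrp2, a secreted Wnt antagonist, had 45, 36, 592 and 909 UMIs.

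Beside Hox genes and activin chains, the caput region genes outside carry-over included growth factor and chemokine genes. Lnx1, a ubiquitin ligase gene, had 33, 5, 1 and 1 UMIs, 2610018G03Rik had 199, 47, 31 and 1 UMIs with a caput level 6.64-fold (95% interval 4.53 to 10.0) the next, and Ctgf, which encodes connective tissue growth factor, had 485, 236, 122 and 48 UMIs and was 4.11-fold (95% interval 3.36 to 5.05) higher. Pdgfc, a platelet-derived growth factor, had 37, 10, 7 and 3 UMIs and Cx3cl1, the chemokine fractalkine, 34, 17, 5 and 2 UMIs. The UMIs of 3 others were in few cells. Defb21 (36, 8, 0 and 0 UMIs) had 94.4% of its caput UMIs in 5 cells, Spink11 (185, 50, 2 and 1 UMIs) had 75.1% and C4bp (30, 8, 0 and 1 UMIs) 100%. All 3 encode proteins of a secreted kind, and without mixed cells the caput library held no C4bp UMI at all. Immediate early genes were also higher in the caput. Of 25 stress and immediate early genes, all had at least 20 UMIs and 5 (20%, against 7.35% of all genes) were 2-fold higher in one library, all of them in the caput, where 3.26% of all genes were. Fos had 5145, 3771, 1196 and 814 UMIs and was 3.03-fold (95% interval 2.9 to 3.16) higher, and Jun, Atf3, Zfp36 and Btg2 followed. The list's sum was 38679.5, 22592, 19626 and 16356 UPM in myofibroblasts and 20138, 16272, 12269 and 12291 UPM in all other cells of the same libraries, highest in the caput in both. These genes respond to handling and dissociation as well as to signals in tissue, and their part in the other caput differences was not tested.

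The caput was also low in 19 genes (0.484% of those tested) by the 4-fold rule. Dio2, which encodes the deiodinase that activates thyroxine, had 2, 141, 80 and 96 UMIs, 31.8-fold (95% interval 8.63 to 265) less in the caput than in the lowest of the others. Hoxd10 and Hoxa10, Fst and Ltbp1, given above, were among the 19. Ccl7, a chemokine, had 4, 42, 70 and 179 UMIs and was higher at every step. Cd52 (6, 199, 330 and 99 UMIs) and Crisp1 (16, 431, 456 and 118 UMIs) are made by principal cells. Crisp1 is a secretory gene of the corpus, cauda and vas deferens, at 35310, 100371 and 34532 UPM in their principal cells.

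The corpus had the fewest region genes, and 4 of the 7 outside carry-over had most of their UMIs in 5 cells. Cxcl11, an interferon-induced chemokine, had 3, 97, 0 and 1 UMIs and was 14.6-fold (95% interval 4.84 to 71.8) higher, with 60.8% of the UMIs in 5 cells. Nts, which encodes the peptide neurotensin, had 0, 62, 0 and 1 UMIs with 93.5% in 5 cells, and Dlk1, a Notch-related surface protein, 0, 44, 1 and 0 UMIs with 68.2%. Tac1, which encodes the precursor of substance P, had 5, 204, 14 and 1 UMIs and was 6.79-fold (95% interval 3.95 to 12.6) higher, with 42.6% in 5 cells. Serpinb1a had 2, 50, 1 and 3 UMIs with 56%, Spint3 2, 35, 3 and 3 UMIs and Mgat4a, a glycosyltransferase gene, 6, 54, 3 and 3 UMIs. At 2-fold, where 62 genes (0.906%) were higher in the corpus, 3 cytokine genes were among them. Il6 had 453, 2716, 221 and 378 UMIs and was 2.59-fold (95% interval 2.33 to 2.9) higher, Cxcl10 had 395, 2059, 297 and 281 UMIs and was 2.35-fold (95% interval 2.11 to 2.62) higher, and Il11 had 30, 264, 29 and 42 UMIs. Aldh1a2, which encodes a retinaldehyde dehydrogenase that makes retinoic acid, had 67, 324, 35 and 15 UMIs and was 2.18-fold (95% interval 1.67 to 2.88) higher. It was 1 of 9 retinoid genes with enough UMIs (11.1%), near the 7.35% of all genes. Serpinf1, which encodes pigment epithelium-derived factor, had 24, 11, 100 and 46 UMIs, 4.84-fold (95% interval 2.28 to 11) lower in the corpus than elsewhere, and Mid1ip1 (34, 17, 37 and 44 UMIs) was the other of the 2 genes (0.0551%) low there.

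Some matrix genes were higher in cauda myofibroblasts and a few were lower. Tnc, which encodes the adhesion-modulating matrix protein tenascin-C, had 12, 33, 325 and 28 UMIs (15.8, 19.6, 414 and 46 UPM), with a cauda level 9-fold (95% interval 6.11 to 13.8) the vas deferens level. It was found after thinning in 3.03%, 1.61%, 26% and 4.19% of cells and in no principal cell. Col8a1, a short-chain collagen, had 6, 39, 93 and 3 UMIs and was 5.12-fold (95% interval 3.49 to 7.65) higher. At 2-fold (65 genes, 1.36%), Fn1, which encodes fibronectin, had 46, 162, 243 and 22 UMIs, Thbs1, thrombospondin-1, 95, 400, 490 and 89 UMIs and Smoc2 250, 672, 1552 and 545 UMIs, and with Tnc they made 4 of the 7 matrix glycoprotein genes that were higher in one library (15.6% of the 45 with enough UMIs, against 7.35% of all genes). The matrix genes Smoc1, Matn2 and Col14a1 were 2-fold lower in the cauda, where 1.42% of all genes were, and no matrix-remodeling gene was 2-fold higher there. Cxcl14, a chemokine, had 260, 198, 1371 and 88 UMIs and was 5.1-fold (95% interval 4.46 to 5.85) higher in the cauda, but other stroma of that library held 14622 UPM. Slc7a8, an amino acid transporter gene, had 10, 34, 92 and 8 UMIs, Sox11, a transcription factor gene, 4, 25, 57 and 0 UMIs and Kcnd2, a potassium channel gene, 6, 11, 50 and 8 UMIs. Igf1, an insulin-like growth factor, had 22, 45, 102 and 18 UMIs and was 4.39-fold (95% interval 2.65 to 7.71) higher. The genes of 2 receptors of contraction and tone shared that profile, with 5, 3, 42 and 7 UMIs of the alpha-2A adrenergic receptor gene Adra2a and 130, 120, 351 and 0 UMIs of the angiotensin receptor gene Agtr2, which was 2.61-fold (95% interval 2.13 to 3.22) higher in the cauda and had none in the vas deferens. Defb1, a beta-defensin gene, had 4, 5, 103 and 0 UMIs, with 69.9% in 5 cells. The 4 genes that were 4-fold lower in the cauda (0.105%) were Dhrs3, a retinaldehyde reductase gene (59, 65, 2 and 35 UMIs), Lcn2 (90, 79, 4 and 34 UMIs), Tnfaip2 (22, 126, 1 and 29 UMIs) and Rgs4, a regulator of G-protein signaling (39, 76, 7 and 125 UMIs).

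**Figure D5:**
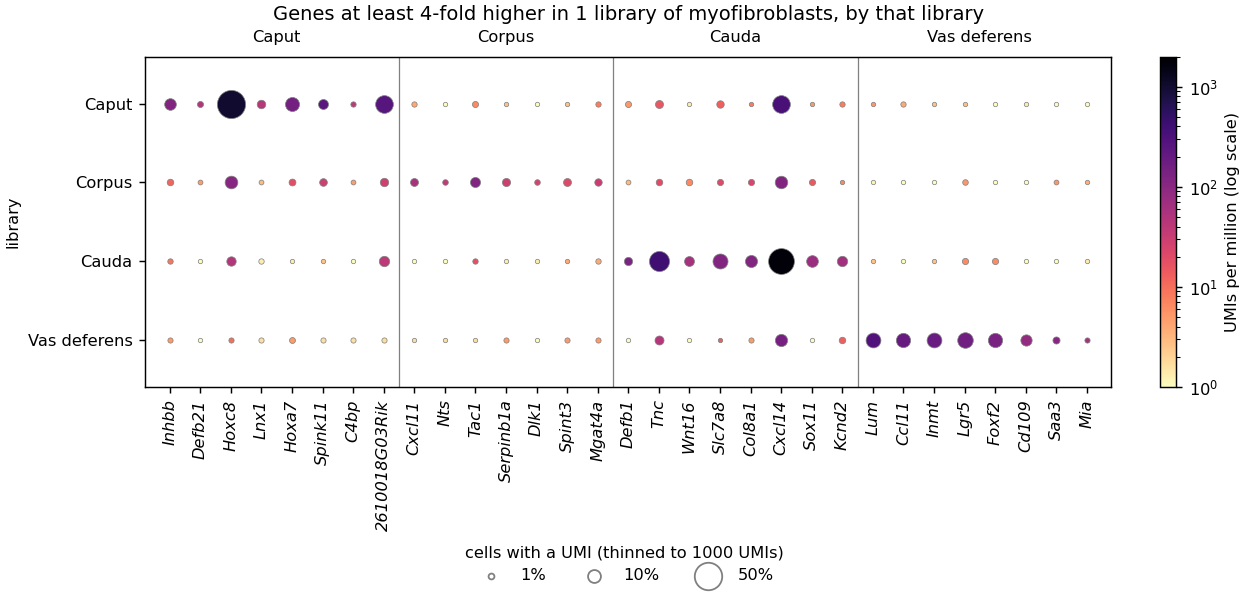
Region genes outside carry-over, up to 8 per library (x axis, grouped by the library in which they are higher), in the 4 libraries (y axis). Color is the level in UPM on a log scale and dot area the percent of cells with a UMI after thinning to 1000 UMIs. Hoxc8 reaches 52.7% of cells in the caput, Tnc 26.0% in the cauda and Lum 13.6% in the vas deferens.

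The vas deferens had the most region genes. Some of its cells bordered on other stroma: 13 of the 209 lay in a cluster of vas deferens stroma. A list of other vas stroma markers summed to 924, 2135, 506 and 1224 UPM in myofibroblasts and 2576, 6794, 1260.5 and 6308 UPM in other stroma. In the corpus, Il6 alone gave 2716 of the list's 3598 UMIs. Of the 6 list genes with enough UMIs in the vas deferens, 4 were 2-fold higher there, where 5.34% of all genes were. These were Lgr5, Angpt1, Tspan8 and Vcam1. How far such stroma contributed to the region genes was not tested. Without the cells outside the main cluster the vas deferens had 68 region genes in place of 65, and without mixed cells 58. The Lum ratio given next was then 54.4-fold and 50.0-fold. Lum had 4, 2, 2 and 178 UMIs (5.27, 1.19, 2.55 and 293 UPM), with a vas deferens level 55.5-fold (95% interval 21.3 to 206) the caput level, and after thinning was found in 0%, 0%, 0% and 13.6% of cells, against 0%, 0%, 0.231% and 0.906% of principal cells. Of the 52 vas deferens myofibroblasts that held Lum, 48 (92.3%) also held Acta2. Other stroma had Lum in every region, at 272, 173, 72 and 812 UPM, so its levels near the floor outside the vas deferens were seen in myofibroblasts and not in their stromal neighbors. Inmt, which encodes an amine methyltransferase, had 2, 0, 2 and 114 UMIs and was 71.1-fold (95% interval 19.2 to 594) higher. Ccl11, the chemokine eotaxin-1, had 3, 0, 0 and 120 UMIs and was 49.9-fold (95% interval 16.7 to 245) higher, with 45% in 5 cells. Foxf2, a forkhead transcription factor gene of mesenchyme, had 0, 0, 5 and 83 UMIs and was 21.4-fold (95% interval 8.81 to 67.7) higher, and Prrx2, a homeobox gene, had 17, 18, 49 and 225 UMIs. Cd109, a surface protein gene, had 1, 1, 0 and 51 UMIs, while Saa3 (0, 9, 0 and 65 UMIs) and Mia (0, 6, 1 and 37 UMIs) each had 100% of their vas deferens UMIs in 5 cells. Among 27 collagen genes with enough UMIs, 5 (18.5%, against 7.35% of all genes) were 2-fold higher in one library, among them Col15a1 (5, 18, 5 and 98 UMIs) and Col27a1 in the vas deferens. Lower ones were more numerous, 7 in all, where 4.57% of all genes were 2-fold lower in one library. Of these, Col4a3, Col4a4, Col11a1 and Col12a1 were low in the vas deferens, where 3.18% of all genes were.

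Several genes of vascular and contractile signaling were higher in vas deferens myofibroblasts, and others were lower. The list of pericyte and vascular muscle markers summed to 266, 369.7, 200.1 and 1464 UPM, and 6 of its 7 genes with enough UMIs were at least 2-fold higher in the vas deferens, where 5.34% of all genes tested were. Kcnj8 and Abcc9 encode the pore and the regulatory subunit of an ATP-sensitive potassium channel of vascular muscle. Kcnj8 had 17, 93, 29 and 246 UMIs and was 7.33-fold (95% interval 5.75 to 9.4) higher, and Abcc9 had 11, 89, 16 and 123 UMIs and was 3.83-fold (95% interval 2.89 to 5.09) higher. Rgs5, a pericyte gene for a regulator of G-protein signaling, had 24, 173, 24 and 247 UMIs. Of the 76 vas deferens cells with Kcnj8, 71 (93.4%) held Acta2 and 31 of the 52 cells with Lum (59.6%) held Kcnj8, against 36.4% of all. For Rgs5, 41 of 51 vas deferens cells with it (80.4%) held Acta2, against 79.4% of all. In the corpus, 18 cells held Rgs5 and 6 of them (33.3%) held Acta2, against 85.2% of all. Of the 65 corpus cells with Kcnj8, 52 (80%) held Acta2. The 2 subunits of the nitric oxide receptor guanylate cyclase followed the channel, with 37, 40, 21 and 145 UMIs of Gucy1a3 and 12, 9, 6 and 75 UMIs of Gucy1b3, 4.89-fold (95% interval 3.39 to 7.22) and 7.8-fold (95% interval 4.21 to 15.8) higher. Pde5a, which breaks down the cyclic GMP that this enzyme makes, had 55, 86, 29 and 112 UMIs, and Ednra, the endothelin A receptor gene, 73, 106, 82 and 216 UMIs. Pdgfrb, a platelet-derived growth factor receptor gene of mural cells, had 24, 54, 35 and 151 UMIs and was 5.56-fold (95% interval 3.83 to 8.28) higher. Over the contraction receptor and channel list, 13 of 29 genes (44.8%) were 2-fold higher in one library, against 7.35% of all genes. Of these, 10 were higher in the vas deferens (5.34% of all genes) and 3 in the cauda (1.36%). Kcnj8, Abcc9, Rgs4 and Rgs5 are in this list and in the pericyte list. A further count of 5 were 2-fold lower in one library, where 4.57% of all genes were. They were Npr3 and Rgs4 in the cauda and Edn3, Agtr2 and Cacna1d in the vas deferens. The list's summed level was highest in the caput (5764, 3683, 2875 and 4204 UPM). Whether mural cells of vessels contributed to these sums was not tested.

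The same library was low in 34 genes (0.832%) that the other 3 held, by the 4-fold rule. Il33, an alarmin cytokine gene, had 258, 355, 167 and 1 UMIs, 128-fold (95% interval 22.9 to 5077) lower in the vas deferens. Cldn11, which encodes a tight-junction claudin, had 432, 597, 65 and 1 UMIs and was 50.4-fold (95% interval 8.73 to 2021) lower, and was also lower at every step. Agtr2 was at least 14.4-fold lower, and Foxl2, a forkhead gene, with 40, 75, 49 and 0 UMIs, was at least 9.03-fold lower. Igfbp2, an insulin-like growth factor binding protein gene, had 685, 1407, 592 and 46 UMIs and was 9.98-fold (95% interval 7.39 to 13.8) lower, whereas Igfbp4 (13, 23, 27 and 98 UMIs) and Igfbp5 (48, 113, 41 and 239 UMIs) were 4.68-fold (95% interval 3.03 to 7.46) and 5.86-fold (95% interval 4.66 to 7.39) higher. In the IGF system, 6 of 14 genes (42.9%, against 7.35% of all genes) were 2-fold higher in one library, 5 of them in the vas deferens, where 5.34% of all genes were. Col4a3 and Col4a4, chains of a specialized basement membrane collagen, had 42, 144, 46 and 4 and 155, 367, 82 and 13 UMIs and were 8.42-fold (95% interval 3.05 to 32.3) and 4.89-fold (95% interval 2.71 to 9.57) lower. The precursor genes of 2 signaling peptides, Edn3 for endothelin-3 (138, 349, 107 and 19 UMIs) and Penk for enkephalins (679, 2010, 905 and 134 UMIs), were 4.37-fold (95% interval 2.66 to 7.54) and 4.06-fold (95% interval 3.37 to 4.93) lower.

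Genes that rose in level at every step from caput to vas deferens numbered 25 of 7105 (0.352%), and those that fell at every step 26 (0.366%), each step having an interval that left out 1. The rising genes included Fst, Id3, Ltbp1, Ccl7 and Smad7, an inhibitory SMAD (53, 164, 141 and 171 UMIs). Col1a2, a chain of type I collagen, was among them with 318, 806, 502 and 548 UMIs. The falling genes included Hoxc8, Hoxc6, Wnt6, Chrdl1, Cldn11 and the immediate early genes Fos, Egr1 and Junb. This rule was added after the levels had been seen. Of hormone receptor and steroid enzyme genes, 0 of 10 with enough UMIs were 2-fold higher in one library, of matrix-remodeling enzymes and inhibitors 0 of 27, and of axon guidance and neurotrophin genes 1 of 20 (5.0%), Negr1. Over all genes the share was 7.35%, and with so few genes per list nothing is read from these counts. Of 43 listed chemokine, cytokine and complement genes, 29 had enough UMIs and 10 (34.5%, against 7.35% of all genes) were 2-fold higher in one library, 5 of them in the vas deferens (5.34% of all genes), such as Ccl2 (149, 566, 242 and 560 UMIs). Of 92 other patterning transcription factors, 39 had enough UMIs and 8 (20.5%, against 7.35% of all genes) were 2-fold higher in one library, 6 of them in the vas deferens (5.34% of all genes). Tcf21, a transcription factor gene of mesenchyme, was the reverse, with 627, 2051, 516 and 109 UMIs, a level 3.67-fold (95% interval 2.98 to 4.56) lower in the vas deferens than in the next.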

How the data were processed

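Single-cell suspensions of 4 regions were measured as 1 droplet 3′ RNA-Seq library each. Per the study's methods and the submitters' processing notes, the authors aligned reads to mm10 with HISAT2 (2.0.4), counted UMIs per RefSeq gene with ESAT (reads with several matches were ignored, which can lower genes with close paralogs), kept droplets with at least 350 UMIs and removed an estimated ambient share with a modified SoupX. The deposited file holds the resulting UMI counts per gene and cell, and the deposited cell table holds the cell type and a size factor, a ratio to the average cell that the authors computed. Strand use and doublet removal are not given in the sources used here, and no doublet caller was run. Mixed cells (at least 3 UMIs of another class's markers, or at least 1% secretory UMIs) were kept and left out in an alternative.

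Counts of the 975 cells were summed per library without further filtering. Levels have exact Poisson intervals, ratios exact conditional intervals and shares Clopper-Pearson intervals (95%). PCR duplicates were merged by UMI, and these intervals cover counting error only. A count of 0 is taken to allow 3. A region gene had at least 20 UMIs, at least 4 times the level of each other library (raised to 3 UMIs) and an interval above 1. A lower gene had at least 20 UMIs in 3 libraries and a level in the fourth, raised to 3 UMIs, at most 0.25 times the lowest of them. A gene with no UMI in the compared library is given as "at least", against 3 UMIs. The genes named were, per library, up to 8 region genes outside carry-over by ratio to the next library and up to 4 lower genes, up to 4 per gene list, all myofibroblast markers, 3 secretory genes and genes the study names for these cells. Others were chosen after their values were seen, as were the steps along the duct, the single-cell Hox classes and the pairs of genes in 1 cell. Members and gene lists were chosen with earlier results of these data known. Some marker values are not reported here. Promoter windows are from RefSeq (GRCm38.p6). Scripts were checked on simulated counts. Python 3.11.15, numpy 2.4.6, scipy 1.17.1, pandas 2.3.3 and matplotlib 3.10.9 were used. The alternatives were the fold, UMI and floor thresholds, depth thinning, size factors, means over cells, removal of mixed or shallow cells and of each library, and the choice of secretory genes.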

Additional observations from a re-analysis of the deposited data

How the results depend on the processing

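Each region is 1 pooled library, so no setting can show how far a difference would hold in other mice, and depth limits calls to genes with 20 or more UMIs. Of 120 checks of the counts and of the carry-over rate, 67 stayed within 1.5 times the count or within the interval of the rate, and 53 moved. The 45 ratios of named genes were to the next library for higher genes and to the lowest other library for lower genes. Of the recomputed ratios, 291 stayed within the interval of the reported ratio and 23 moved. One reversed, that of C4bp in the caput, which was 0 without mixed cells. Of the shares of cells, 32 stayed and 58 moved when cells were not thinned or were thinned to 500 UMIs. The alternatives without cells outside the main cluster, without genes concentrated in 5 cells and without broadly expressed secretory genes were added after seeing the data.

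With a 2-fold threshold, 159, 62, 65 and 236 genes were higher in caput, corpus, cauda and vas deferens and 325 lower in one library. With an 8-fold threshold, 15, 2, 3 and 27 were higher and 14 lower. At least 4-fold pairwise differences numbered 168 for caput and corpus, 299 for caput and cauda, 461 for caput and vas deferens, 183 for corpus and cauda, 352 for corpus and vas deferens and 244 for cauda and vas deferens. With a minimum of 10 UMIs the vas deferens had 122 higher genes. With 50 UMIs it had 40 and the caput 19, and 29 were lower in one library. A floor of 1 UMI gave the corpus 15. The caput count was 19 without mixed cells, 23 without genes within carry-over and 24 with principal cells as the source. It was 17 without genes with 50% of their UMIs in 5 cells, and the corpus count was then 5.

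Without the caput library the corpus had 46 higher genes. Without the corpus library the caput had 80 and the cauda 27. Without the cauda library the corpus had 21 and the vas deferens 120, and without the vas deferens library the corpus had 22 and the cauda 44. These counts grow because fewer libraries have to be exceeded.

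The carry-over rate in caput, corpus, cauda and vas deferens was 4.61, 6.45, 3.42 and 6.10% with 50 secretory genes, 2.11, 2.28, 1.61 and 5.31% as a median of the 20 ratios, and 1.32, 0.858, 1.08 and 2.77% with principal cells as the source. With 10 genes the caput had 2.45%, the cauda 1.67% and the vas deferens 4.35%. With cells of at least 1000 UMIs the corpus had 2.60%, the cauda 2.35% and the vas deferens 5.30%. Leaving out broadly expressed genes gave 1.67% for the cauda and 2.15% for the vas deferens. The cause of these shifts was not tested.

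No paired analysis was possible because each region has 1 library, pooled from the same mice as the others, so there are no repeated pairs.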
